A study of Mus musculus with 22 samples.

Results

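The 34 genes described here are the Myc family of transcription factors (Myc, Mycn and Mycl) and 31 genes of ribosome biogenesis and of polyamine synthesis. They were taken by symbol from the 32285 genes of the deposited count matrices, and each of the 34 symbols matched 1 gene. Myc proteins bind DNA as partners of Max, and genes needed to make ribosomes are among their best known targets. Ribosome production begins in the nucleolus, where RNA polymerase I transcribes the precursor of the ribosomal RNAs. Small nucleolar ribonucleoproteins (snoRNPs) then modify that precursor, and separate sets of assembly factors fold and cut it into the small and the large ribosomal subunit. In the embryo Myc, Mycn and Mycl are expressed in partly different tissues, and Mycn is known for its high expression in the early nervous system and in the tail bud.

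The members fall into 8 roles. Beside the 3 Myc genes, the nucleolar proteins are Npm1, Npm3, Ncl, Nolc1, Gnl3, Ddx21 and Pa2g4. Fbl, Nop56, Nop58 and Rrp9 belong to the box C/D snoRNPs, which methylate ribosomal RNA. Dkc1, Gar1, Nhp2 and Nop10 are the core proteins of the box H/ACA snoRNPs, which convert uridine to pseudouridine. Polr1a and Polr1b are the largest subunits of RNA polymerase I. Utp20, Wdr43 and Bysl act in the small subunit, and Bop1, Pes1, Wdr12, Nip7, Mrto4, Nop2, Nop16, Noc2l and Rrp1b in the large one. Odc1 and Srm are the enzymes ornithine decarboxylase and spermidine synthase, textbook targets of Myc in polyamine synthesis.

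The data are single-cell RNA counts of gastruloids, mouse embryonic stem cells grown as small free-floating aggregates, in which tissues like those of a gastrulating embryo arise. All groups were wild-type E14Tg2A cells from a single line, seeded at 300 cells a well and treated from 48 h of culture with CHIR99021 at 3 µM, which blocks the kinase GSK3 and so activates Wnt signalling, so no group differs from another by genotype or treatment. In the MULTI-seq experiments each gastruloid's cells were tagged with a barcode of their own, then pooled and split over lanes. The labels use the word pool for MULTI-seq 2 only. For MULTI-seq 3, pool here means the lanes labelled with the same days. Those lanes are named exp4 (day 3), exp5 (days 3.5 and 4) and exp6 (days 4.5 and 5). What else differed between these sets of lanes is not said in the labels. The groups used were day 5 in MULTI-seq 1 (24 gastruloids), day 4 (11) and day 4.5 (12) in MULTI-seq 2, and day 3 (24) and days 3.5, 4, 4.5 and 5 (16 each) in MULTI-seq 3. A further experiment, called 10X in the labels, has 1 lane each of day 3 and day 4 without gastruloid barcodes. The gastruloid was the replicate. The authors picked gastruloids they judged representative, and nothing in the labels says whether those of an experiment came from separate cultures of the line, so p-values measure the spread between the picked gastruloids only.

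Levels are UMI counts (distinct RNA molecules) summed over the cells of a gastruloid and given per 1000000 UMIs (CPM). Calls placed 53730 cells in 136 gastruloids, and the 135 of these with at least 30 cells were used. A gastruloid had 1293296 to 57333371 UMIs. Of the distinct cell barcodes, 0.95% occurred in 2 or more lanes. Cytosolic ribosomal protein genes made up a median of 24.0% of a gastruloid's UMIs in MULTI-seq 1, 30.4% and 29.6% on days 4 and 4.5 of MULTI-seq 2, and 32.6%, 29.0%, 29.2%, 32.1% and 32.0% on days 3 to 5 of MULTI-seq 3. Mitochondrial UMIs had a median of 1.98% to 2.28% by day in MULTI-seq 3 and of 5.19% to 5.61% in MULTI-seq 1 and MULTI-seq 2. The authors gave each cell 1 of 25 cell type names. Their defining markers were checked for 16 names, and all 51 pairs of name and marker lay above the median of the names, 46 of them among the 5 highest names. The names were made from the same expression values, so this outcome was likely beforehand and is weak support for them. Caudal Neurectoderm, Early and Late Anterior PSM and Early Nascent Mesoderm were among the names not checked. Counts were made at the 3′ ends of transcripts, so levels are compared between samples and never between genes. Npm1 and many ribosomal protein genes have near-identical processed pseudogenes, and the sources used here do not say how reads shared between copies were counted.

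Promoters were read for the members because most of them changed together between day 3.5 and day 4. Myc and Max bind the letters CACGTG (an E-box), which read the same on both strands. RefSeq windows from 250 bases before to 50 bases after the start of transcription (GRCm38.p6) were found for 29 of the 34 members, all but Npm1, Fbl, Bop1, Srm and Myc. The motif was in 4 of these 29 windows (13.8%), against 8.09% of the windows of 27025 genes. The difference between these shares was not tested, and motifs outside the windows were not read. The 4 matches are shown with the motif in capitals.
Nop2: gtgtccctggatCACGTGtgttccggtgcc
Utp20: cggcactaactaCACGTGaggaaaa
Pes1: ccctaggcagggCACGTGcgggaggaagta
Wdr43: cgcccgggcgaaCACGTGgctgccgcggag
The Nop2 match lies at chr6:125131811-125131840 on the plus strand, and its motif starts 60 bases before the start of transcription and overlaps no annotated exon. In the other 3 the motif lies just after the start, in untranslated exon sequence of the same gene: Utp20 at chr10:88826760-88826784 on the minus strand, Pes1 at chr11:3963965-3963994 on the plus strand and Wdr43 at chr17:71616220-71616249 on the plus strand. A match is a description of these letters and not a measured binding site.

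Between day 3.5 and day 4, nearly all the members of ribosome biogenesis and polyamine synthesis were lower on the later day, while the Myc family split. The 2 days shared a pool and its lanes in MULTI-seq 3 (16 gastruloids each). By edgeR's quasi-likelihood test with Benjamini-Hochberg adjustment over all genes, 32 of the 34 members fell, Mycn rose and Nop16 was not called. Of all 13262 genes tested, 60.4% were called, 31.1% higher and 29.2% lower. The members' median log2 change was −0.35, beside 0.01 over all genes. The level of a gastruloid is a sum over its cells, so fewer cells of a type and less RNA per cell cannot be told apart in it.

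Mycn had 49.6, 69.0 and 83.0 CPM (lowest, median and highest gastruloid) on day 3.5 and 66.1, 97.4 and 111 on day 4. In 15 of the 16 day 4 gastruloids Mycn lay above the day 3.5 median, and in 12 above the highest day 3.5 gastruloid. The log2 change of Mycn was 0.41 ± 0.08 (SE, adjusted p = 2.3e-05), a rise of 1.33-fold. Myc went the other way, from 8.56, 17.7 and 24.3 CPM to 6.86, 11.0 and 26.5. Its log2 change was −0.57 ± 0.17 (SE, adjusted p = 0.0049), with 14 of 16 gastruloids below the day 3.5 median and 1 above the highest. Mycl fell as well, from 21.2, 33.0 and 39.2 CPM to 9.70, 17.7 and 41.0. For Mycl the log2 change was −0.73 ± 0.16 (SE, adjusted p = 0.00024), and 10 day 4 gastruloids lay below the lowest of day 3.5 while 2 lay above the highest.

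**Figure D1:**
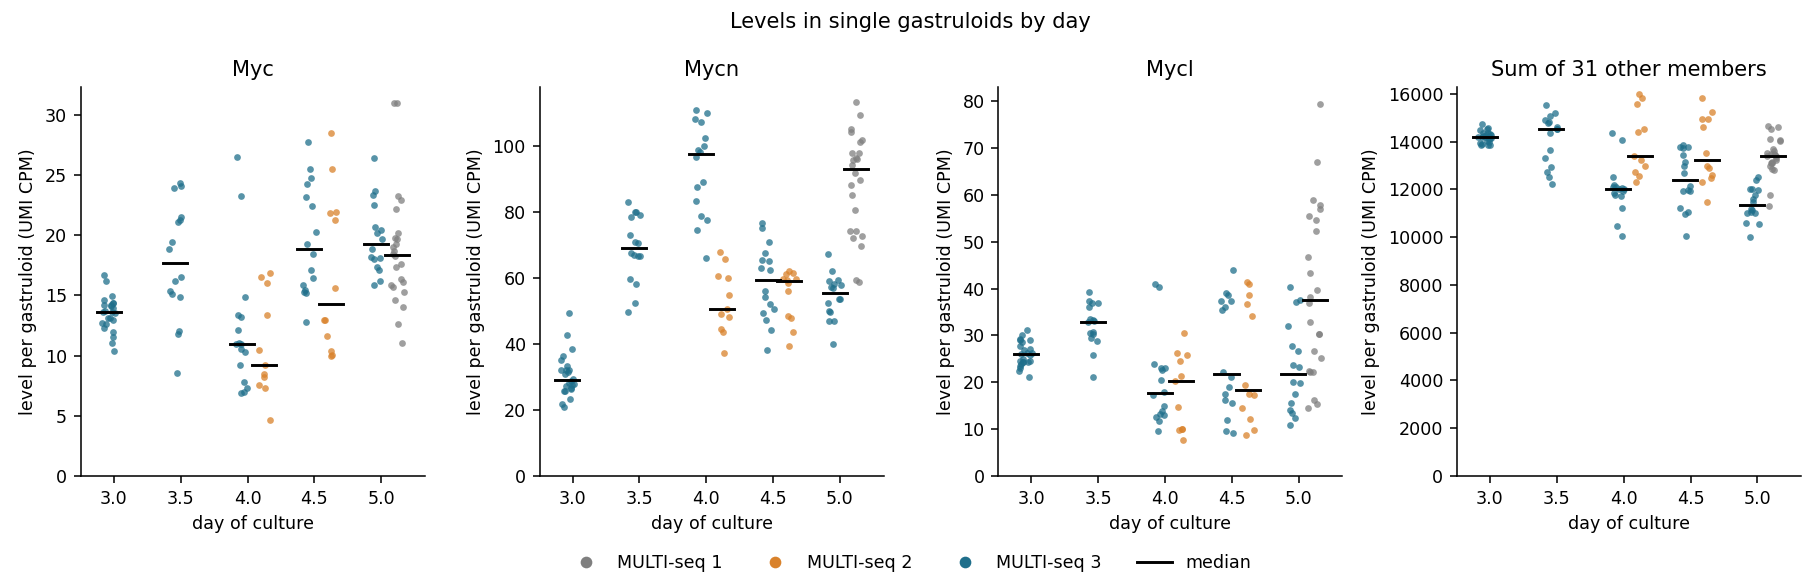
Level (UMI CPM, y axis) of Myc, Mycn, Mycl and the sum of the 31 other members in each gastruloid by day of culture (x axis). Colours mark the experiments and black lines the medians; in MULTI-seq 3 Mycn has its highest median, 97.4 CPM, on day 4, where Myc and Mycl have their lowest, 11.0 and 17.7 CPM.

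The 31 other members together made up 12221, 14524.5 and 15516 CPM on day 3.5 (lowest, median and highest gastruloid) and 10033, 12018 and 14359 on day 4. All 16 day 4 gastruloids lay below the day 3.5 median and 13 below the lowest day 3.5 gastruloid. Npm1 weighs heavily in this sum, with medians of 6392.9 CPM on day 3.5 and 5663.5 on day 4. Without Npm1 the sum was 6532.9, 7993.5 and 8389.7 CPM on day 3.5 and 4845.6, 6165.5 and 7818.2 on day 4. The largest change among these 31 was that of Odc1. Odc1, the enzyme that commits ornithine to polyamines, went from 230.1, 344 and 396 CPM to 178, 216 and 335. Its log2 change was −0.60 ± 0.09 (SE, adjusted p = 7.7e-07), a level 1.52-fold lower, and 13 gastruloids lay below the lowest of day 3.5. Srm changed by −0.49 ± 0.08.

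All 7 nucleolar proteins fell, by log2 values from −0.18 for Npm1, a histone and ribosome chaperone, to −0.54 for Ddx21, an RNA helicase of the nucleolus. Ddx21 had 155, 229.5 and 257 CPM on day 3.5 and 98.1, 145 and 224.5 on day 4, all 16 gastruloids below the earlier median (adjusted p = 1.2e-05). All 8 snoRNP proteins fell too. Rrp9, which helps to assemble the U3 snoRNP, had 42.8, 51.8 and 58.9 CPM and then 24.7, 35.6 and 48.4, a log2 change of −0.54 ± 0.07 (adjusted p = 1.6e-07). Nhp2 changed most among the box H/ACA proteins, by −0.47 ± 0.07, from a median of 447 to 298 CPM with 14 gastruloids below the earlier lowest. The smallest changes in the 2 snoRNP classes were those of Fbl, the methyltransferase itself, at −0.13 ± 0.03, and of Nop10 at −0.13 ± 0.04.

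Both RNA polymerase I subunits fell, Polr1b by −0.26 ± 0.07 and Polr1a by −0.22 ± 0.03. In the small subunit group Wdr43 changed most, by −0.36 ± 0.05, from a median of 209 to 158 CPM. Utp20 and Bysl changed by −0.30 ± 0.05 and −0.31 ± 0.07. In the large subunit group 8 of 9 genes fell, Rrp1b most, by −0.50 ± 0.05 (adjusted p = 3.2e-09). Rrp1b had 94.6, 113 and 130.0 CPM on day 3.5 and 61.5, 80.3 and 99.9 on day 4, with 15 of 16 gastruloids below the lowest of day 3.5. Nop16 was the exception, with medians of 64.8 and 63.7 CPM and a log2 difference of −0.06 ± 0.04 (adjusted p = 0.17). Each of the 34 genes kept some overlap between the ranges of the 2 days, and 1.15% of all genes tested had none.

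Other genes of the pathway were read from lists chosen with earlier results of these data known. In the small subunit processome list 42 of 44 genes fell (median of the list −0.25), led by Utp14a (−0.65 ± 0.06) and Rrp12 (−0.60 ± 0.10). Of 42 genes of large subunit assembly 39 fell (median −0.23), led by Urb1 (−0.47 ± 0.08) and Mak16 (−0.44 ± 0.06). In the RNA polymerase I list 10 of 14 fell and 1 rose (median −0.20). The cytosolic ribosomal proteins, the products that these factors assemble, had 22 of 77 genes that fell and 3 that rose, beside 29.2% and 31.1% of all genes, and a median log2 difference of −0.04. With library totals in place of TMM factors 20 of the ribosomal protein genes fell and 9 rose. Of 9 genes in the Myc network list, which holds Max, other partners of Max and the related genes Mlx and Mlxip, 5 rose and 1 fell. Those that rose were Max itself (0.17 ± 0.04) and Mxd1, Mxd3, Mxd4 and Mxi1, which encode repressors that compete with Myc for Max, by log2 values of 0.43 to 0.68. Mlx, which encodes a protein related to Max, fell by 0.13 on the log2 scale. Within cells of 1 name between the same days fewer genes of any kind were called (36.9% of all in Early Posterior PSM and 18.8% in Caudal Epiblast). In Early Posterior PSM 2 of the 9 rose, Mxd4 (0.39 ± 0.07) and Mxi1 (0.75 ± 0.10), and Max differed by 0.07 ± 0.06 without a call. In Caudal Epiblast 7 of them could be tested, none with a call, and their adjusted p ran from 0.055 (Mxd4, 0.26 ± 0.10) to 0.99. On day 3.5 against day 3, 5 genes of the list were higher and 3 lower, beside 39.3% and 35.6% of all genes. On day 4.5 against day 4 of MULTI-seq 3, 1 was higher and 4 lower, beside 32.4% and 33.8% of all genes. With library totals 0 were higher and 8 lower, beside 2235 and 6886 of all 12843 genes tested. Between the same days of MULTI-seq 2 only Mnt was called, higher by 0.28 ± 0.07, beside 3.03% of all genes higher and 4.33% lower. From day 4.5 to day 5 the smallest adjusted p of the list in whole gastruloids was 0.21 by edgeR's test (Mlx, 0.08 ± 0.04). Within names over that step, Mxi1 was higher in Late Posterior PSM (0.43 ± 0.13, adjusted p = 0.041), beside 3.14% of all genes. Mxd4 was lower in Mature Somites (−0.22 ± 0.05, adjusted p = 0.0029), beside 7.66% of all genes. In Early Spinal Cord and NMPs no gene of the list was called.

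**Figure D2:**
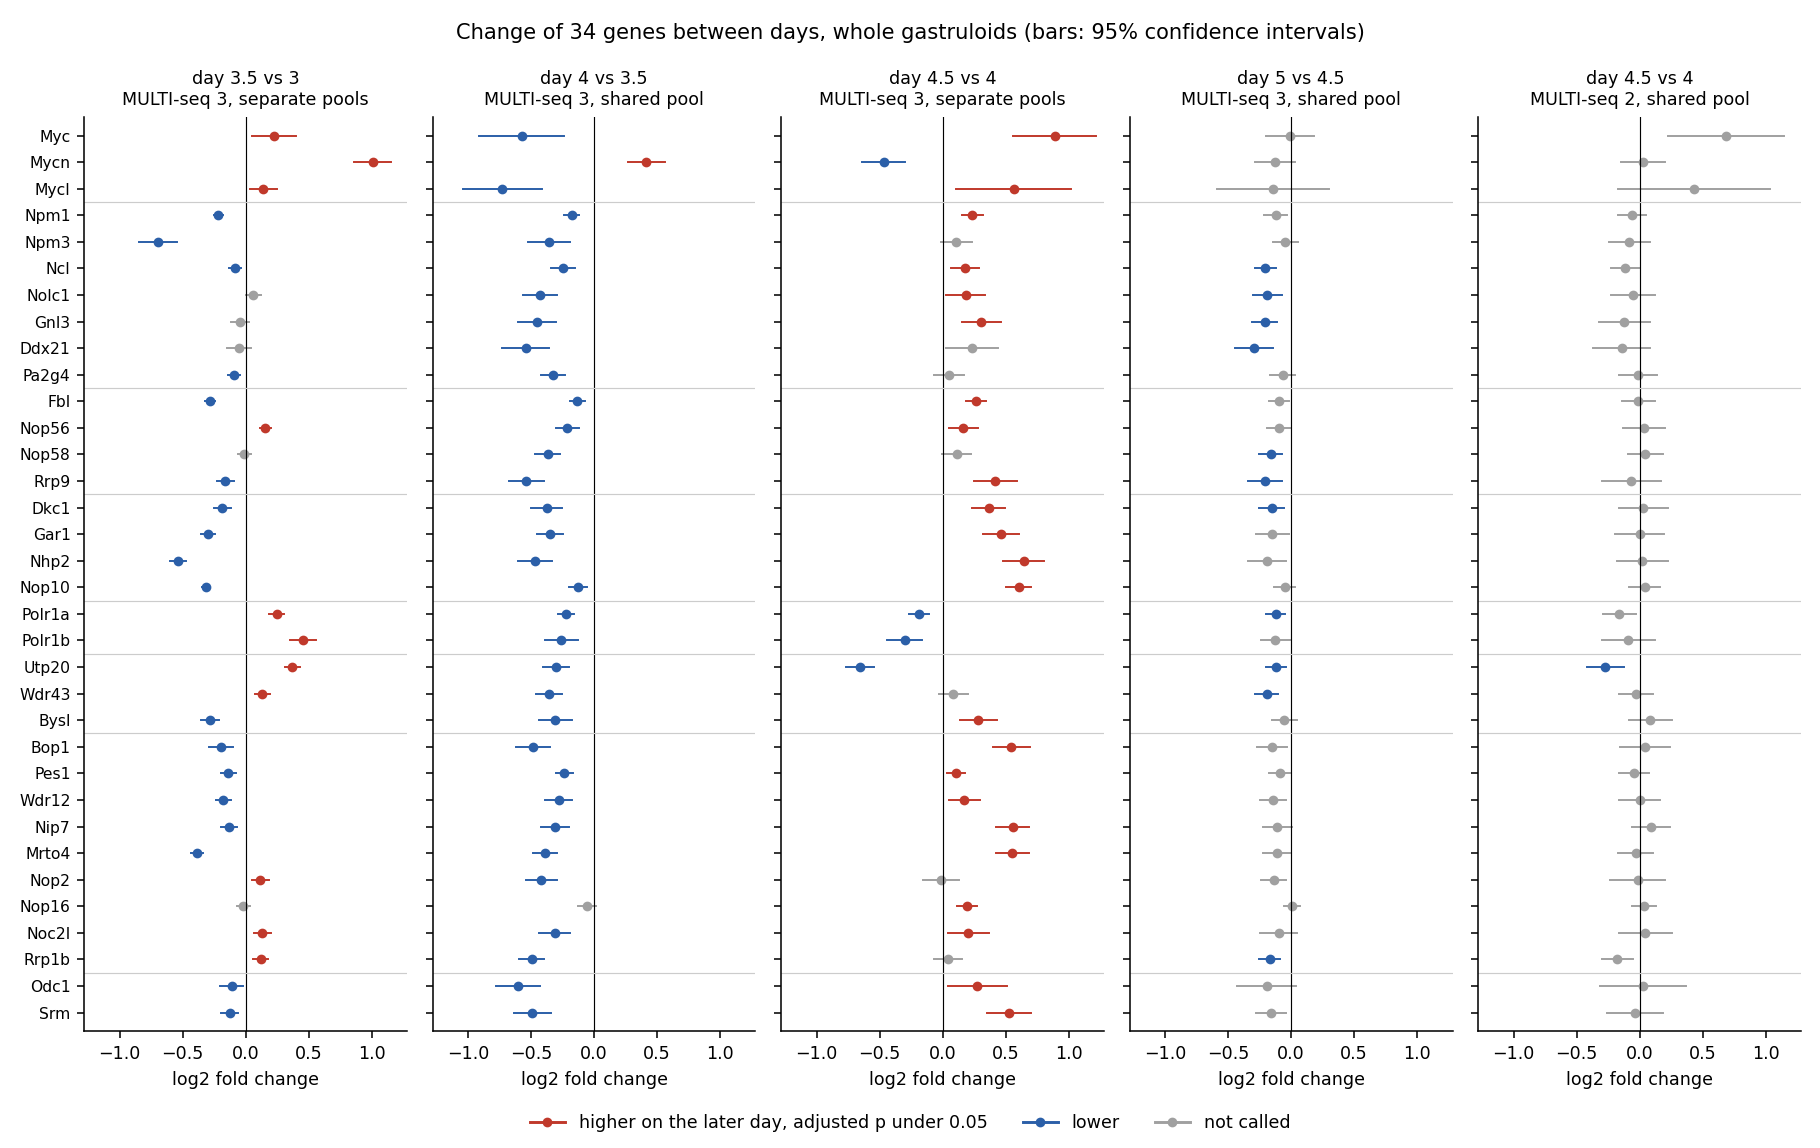
Log2 fold change (x axis) of each of the 34 genes (y axis, grouped by role) between consecutive days, from sums per gastruloid, with bars of 95% confidence intervals. Red marks genes called higher on the later day, blue lower and grey not called; on day 4 against day 3.5 every point but that of Mycn lies below 0, and on day 4.5 against day 4 of MULTI-seq 2 all but Utp20 are grey.

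From day 4.5 to day 5, which also shared a pool in MULTI-seq 3 (16 gastruloids each), 11 of the 34 members fell by edgeR's test and 0 rose, and 12 fell and 0 rose by DESeq2, while 23 members and 28.4% of all genes tested had an unadjusted p under 0.05 by edgeR. Of 12298 genes 13.5% were called by edgeR, 7.11% lower and 6.35% higher (874 lower and 781 higher, or 645 and 903 with library totals in place of TMM factors). The share of all genes called by DESeq2 is not reported here. The median log2 change of the members was −0.13. None of the 3 Myc genes was called. Myc had 12.8, 18.9 and 27.7 CPM and then 15.8, 19.3 and 26.4, a difference of −0.01 ± 0.10. Mycn had 38.1, 59.2 and 76.5 CPM and then 39.9, 55.3 and 67.2, a difference of −0.13 ± 0.08. Mycl had 9.15, 21.7 and 43.9 CPM and then 10.9, 21.7 and 40.3, a difference of −0.14 ± 0.23, the widest error of the 3.

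Ddx21 led again among the nucleolar proteins, from 108, 152 and 195 CPM on day 4.5 to 102, 128 and 149 on day 5. All 16 later gastruloids lay below the earlier median (log2 change −0.30 ± 0.08, adjusted p = 0.0098). Ncl, Nolc1 and Gnl3 also fell, by 0.19 to 0.21 on the log2 scale. In the other roles the largest called changes were those of Rrp9 (−0.21 ± 0.07), Dkc1, the pseudouridine synthase (−0.15 ± 0.05), Polr1a (−0.12 ± 0.04), Wdr43 (−0.20 ± 0.05) and Rrp1b (−0.17 ± 0.04), with Nop58 and Utp20 the other 2. No polyamine gene was called. The 23 members without a call had log2 differences from −0.19 to 0.01, and they were Npm1, Npm3, Pa2g4, Fbl, Nop56, Gar1, Nhp2, Nop10, Polr1b, Bysl, Bop1, Pes1, Wdr12, Nip7, Mrto4, Nop2, Nop16, Noc2l, Odc1, Srm and the 3 Myc genes. Of the 44 processome genes 13 fell, of the 42 large subunit genes 21, of the 14 RNA polymerase I genes 5 and of the 77 ribosomal protein genes 7, with 1 ribosomal protein gene higher. With library totals 8 ribosomal protein genes fell and 8 rose. Without a filter on low counts the number of members called was 5, and the share of all genes called in that fit is not reported here.

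The step from day 4 to day 4.5 was followed in 2 experiments. The day 4 gastruloids of MULTI-seq 3 are those compared with day 3.5 above. In MULTI-seq 2 both days shared a pool (11 and 12 gastruloids), and 7.36% of 11064 genes were called, 4.33% lower and 3.03% higher (479 and 335 genes, or 381 and 511 with library totals in place of TMM factors). Among the 34 members only Utp20, a scaffold of the small subunit precursor, fell, from 33.3, 40.8 and 53.6 CPM to 28.4, 35.9 and 40.7 (log2 change −0.27 ± 0.07, adjusted p = 0.024), and all 12 later gastruloids lay below the earlier median. That call was lost without lane 3 of the pool and with a minimum of 100 cells per gastruloid, which left 6 and 11 gastruloids. Myc had 4.63, 9.18 and 16.9 CPM on day 4 and 9.99, 14.3 and 28.5 on day 4.5. All 12 later gastruloids lay above the earlier median for Myc, but its log2 difference of 0.68 ± 0.23 was not called (adjusted p = 0.076). With the minimum of 100 cells it was 1.04 and called (adjusted p = 0.028). Mycn differed by 0.03 ± 0.09 and Mycl by 0.43 ± 0.31. The other 30 members had log2 differences from −0.18 for Rrp1b to 0.09 for Bysl and Nip7. The processome and large subunit lists had median log2 differences of −0.02 each, and 18 of 77 ribosomal protein genes fell.

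In MULTI-seq 3 the same days were in separate pools, so day and pool cannot be told apart, and 66.1% of 12843 genes were called, 32.4% higher and 33.8% lower. Of the 34 members 23 were higher on day 4.5, 4 were lower and 7 were not called. This count depends on the scaling: with library totals in place of TMM factors the median of all genes moved from −0.02 to −0.22, and 2235 genes of all were higher and 6886 lower in place of 4158 and 4337. The members called were then 10 higher and 8 lower. Without a filter on low counts 15 were higher, in a fit whose share of all genes called is not reported here. Cytosolic ribosomal proteins made up a median of 29.2% of a gastruloid's UMIs on day 4 (28.2% to 30.1%) and 32.1% on day 4.5 (29.5% to 32.8%), ranges that overlapped, and 76 of their 77 genes were higher (63, with 4 lower, by library totals). In a fit that left out ribosomal protein and mitochondrial genes, 18 members were higher and 4 lower. The share of all genes called in that fit is not reported here, so the count has no background beside it.

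Under both scalings Mycn was lower on day 4.5 and Myc higher. Mycn had 38.1, 59.2 and 76.5 CPM on day 4.5, all 16 gastruloids below the day 4 median and 12 below the lowest day 4 gastruloid (log2 difference −0.47 ± 0.09, adjusted p = 2.5e-05). Myc differed by 0.89 ± 0.17 (adjusted p = 2.6e-05), with all 16 later gastruloids above the day 4 median. Cells with a spinal cord name made up 35.1% and 38.5% of 2 gastruloids on day 4 and 50.4% to 82.1% of 7 on day 4.5. On day 4.5 Myc had a median of 24.2 CPM in those 7 and 15.9 in the other 9, and Mycn 49.5 and 65.4. The part of this share in the differences was not tested. Mycl differed by 0.56 ± 0.23 (adjusted p = 0.033), and by 0.37 and without a call under library totals. Utp20 was the 1 member of 34 whose ranges did not overlap, beside 14.2% of all genes tested, with 51.2, 59.0 and 78.9 CPM on day 4 and 28.5, 34.1 and 40.9 on day 4.5 (log2 difference −0.66 ± 0.06). Both RNA polymerase I subunits were lower too, Polr1b by −0.30 ± 0.07. Largest among the genes that were higher, by role, were Gnl3 (0.31 ± 0.08), Rrp9 (0.42 ± 0.09), Nhp2 (0.64 ± 0.08), Bysl (0.28 ± 0.07), Nip7 (0.56 ± 0.07) and Srm (0.53 ± 0.09). The 7 without a call were Npm3, Ddx21, Pa2g4, Nop58, Wdr43, Nop2 and Rrp1b, with differences from −0.01 to 0.23.

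A test of the difference between the experiments, on all 4 groups together, called 13 members with a more positive change in MULTI-seq 3 and 2 with a more negative one, beside 33.9% of 12551 genes (17.4% and 16.5%). The 2 were Mycn (−0.50 ± 0.13, adjusted p = 0.0023) and Utp20 (−0.39 ± 0.09). The 4 box H/ACA proteins were all among the 13, led by Nhp2 (0.61 ± 0.14), and all 77 ribosomal protein genes also had a more positive change in MULTI-seq 3 (65, with 2 more negative, by library totals). For Myc the difference was 0.20 ± 0.30 and for Mycl 0.12 ± 0.40, neither called. The other members without a call ran from −0.22 (Polr1b) to 0.37 (Ddx21). With library totals in place of TMM factors, 5 members had a more positive and 4 a more negative change, and 785 and 4561 genes of all did, in place of 2190 and 2070.

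Day 3.5 and day 3 of MULTI-seq 3 (16 and 24 gastruloids) were also in separate pools, and day and pool cannot be told apart there. Of 11981 genes 74.8% were called, 39.3% higher and 35.6% lower, and of the 34 members 11 were higher and 18 lower. With library totals in place of TMM factors the median of all genes moved from 0.03 to 0.19, and 6629 genes of all were higher and 2566 lower in place of 4704 and 4260. The members called were then 18 higher and 8 lower. Mycn was higher under both scalings. It had 21.0, 29.0 and 49.4 CPM on day 3 and 49.6, 69.0 and 83.0 on day 3.5, so that all 16 later gastruloids lay above all 24 earlier ones (log2 difference 1.01 ± 0.08, or 2.01-fold, adjusted p = 1.3e-15). Myc and Mycl were higher by 0.23 ± 0.09 and 0.14 ± 0.06, with medians of 13.6 and 17.7 CPM for Myc and of 25.9 and 33.0 CPM for Mycl.

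All 4 box H/ACA proteins were lower, Nhp2 most, from 506, 541 and 583 CPM on day 3 to 337, 447 and 497 on day 3.5 with no overlap (−0.54 ± 0.03). The ranges did not overlap for 5 of the 34 members (Mycn, Nop56, Nhp2, Polr1a and Utp20), beside 14.8% of all genes tested. Both RNA polymerase I subunits were higher, Polr1b by 0.46 ± 0.05 and Polr1a by 0.25 ± 0.03. Utp20 was higher by 0.37 ± 0.03, again with no overlap, from a median of 50.7 to 78.4 CPM, and Wdr43 by 0.13 ± 0.03, while Bysl was lower by −0.28 ± 0.04. Npm3, a partner of Npm1, was lower by −0.69 ± 0.08, Fbl by −0.28 ± 0.02, Mrto4, which helps to build the stalk of the large subunit, by −0.38 ± 0.03, and Srm by −0.13 ± 0.03 (with library totals, Srm was at 0.04). Against most of their roles Nop56, Nop2, Noc2l and Rrp1b were higher, by 0.12 to 0.16. The 5 without a call, Nolc1, Gnl3, Ddx21, Nop58 and Nop16, had differences from −0.05 to 0.06. All 77 ribosomal protein genes were lower on day 3.5 (74, with 1 higher, by library totals).

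Days were next compared within cells of the same name, for the 6 names with at least 8 gastruloids of 20 or more such cells on both days of a shared pool, all in MULTI-seq 3. The names are clusters of expression that the authors made, so these tests are conditional on the naming. PSM usually stands for presomitic mesoderm, the tissue that segments into somites, and NMPs for neuromesodermal progenitors, which give rise to spinal cord and mesoderm.

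The lower levels of day 4 against day 3.5 were present within both names that could be tested. In Early Posterior PSM (10 and 15 gastruloids) 29 of the 34 members fell and Mycn rose, beside 36.9% of 10049 genes (18.6% lower, 18.3% higher). The members' median log2 change there was −0.20. Mycn had 48.3, 62.4 and 103 CPM on day 3.5 and 88.2, 103 and 128 on day 4 (log2 change 0.56 ± 0.09, adjusted p = 5.3e-06). Myc fell from 7.98, 19.0 and 26.5 CPM to 5.43, 9.05 and 14.8 (−0.87 ± 0.16, adjusted p = 4.9e-05), and Mycl from 13.7, 22.9 and 42.5 CPM to 7.75, 15.5 and 23.1 (−0.70 ± 0.16, adjusted p = 0.00089). Rrp1b had 85.4, 95.1 and 102 CPM on day 3.5 and 62.5, 72.8 and 76.4 on day 4, ranges that did not overlap, as for 1.32% of all genes tested there. Its log2 change was −0.43 ± 0.04. The largest changes in the other roles were those of Odc1 (−0.57 ± 0.06), Npm3 (−0.41 ± 0.06), Rrp9 (−0.38 ± 0.06), Nhp2 (−0.20 ± 0.04), Polr1a (−0.22 ± 0.05) and Wdr43 (−0.20 ± 0.04). Polr1b, Bysl, Nop16 and Noc2l were not called, at −0.04 to 0.02. Of the ribosomal protein genes 73 of 77 fell, of the processome genes 29 of 44 and of the large subunit genes 23 of 42. With library totals these numbers were 51, 8 and 7, 24 members fell, and the split of all genes was 2766 higher and 1259 lower in place of 1843 and 1867.

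In Caudal Epiblast (13 gastruloids on each day) 20 members fell and 2 rose, beside 18.8% of 8851 genes (9.19% lower, 9.58% higher). Here Mycl rose with Mycn: Mycl had 30.9, 38.6 and 44.6 CPM on day 3.5 and 31.9, 43.9 and 69.5 on day 4 (log2 change 0.24 ± 0.08, adjusted p = 0.032), and Mycn 44.8, 58.4 and 87.8 CPM and then 56.9, 80.4 and 86.4 (0.35 ± 0.07, adjusted p = 0.0004). Myc differed by −0.72 ± 0.30, with medians of 10.2 and 5.84 CPM, and was not called (adjusted p = 0.09). Odc1 went from 207, 307 and 415 CPM to 133, 214 and 301, a log2 change of −0.54 ± 0.08, and Srm changed by −0.39 ± 0.05. In the other roles Ddx21 (−0.46 ± 0.08), Rrp9 (−0.38 ± 0.07), Dkc1 (−0.21 ± 0.05), Wdr43 (−0.23 ± 0.04) and Nop2, an RNA methyltransferase (−0.42 ± 0.08), had the largest called changes. Not called were Npm3, Fbl, Gar1, Nop10, Polr1a, Polr1b, Utp20, Bysl, Pes1, Nop16 and Noc2l, at −0.25 to 0.07. The ribosomal protein genes went the other way from the assembly factors, with 33 of 77 higher and 4 lower, while 19 of 44 processome genes and 15 of 42 large subunit genes fell. The call of Mycl was lost without any 1 of lanes A, C or D (adjusted p = 0.095 to 0.35), and with at least 50 cells per gastruloid and name 0 members were called, and only 34 genes in all.

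**Figure D3:**
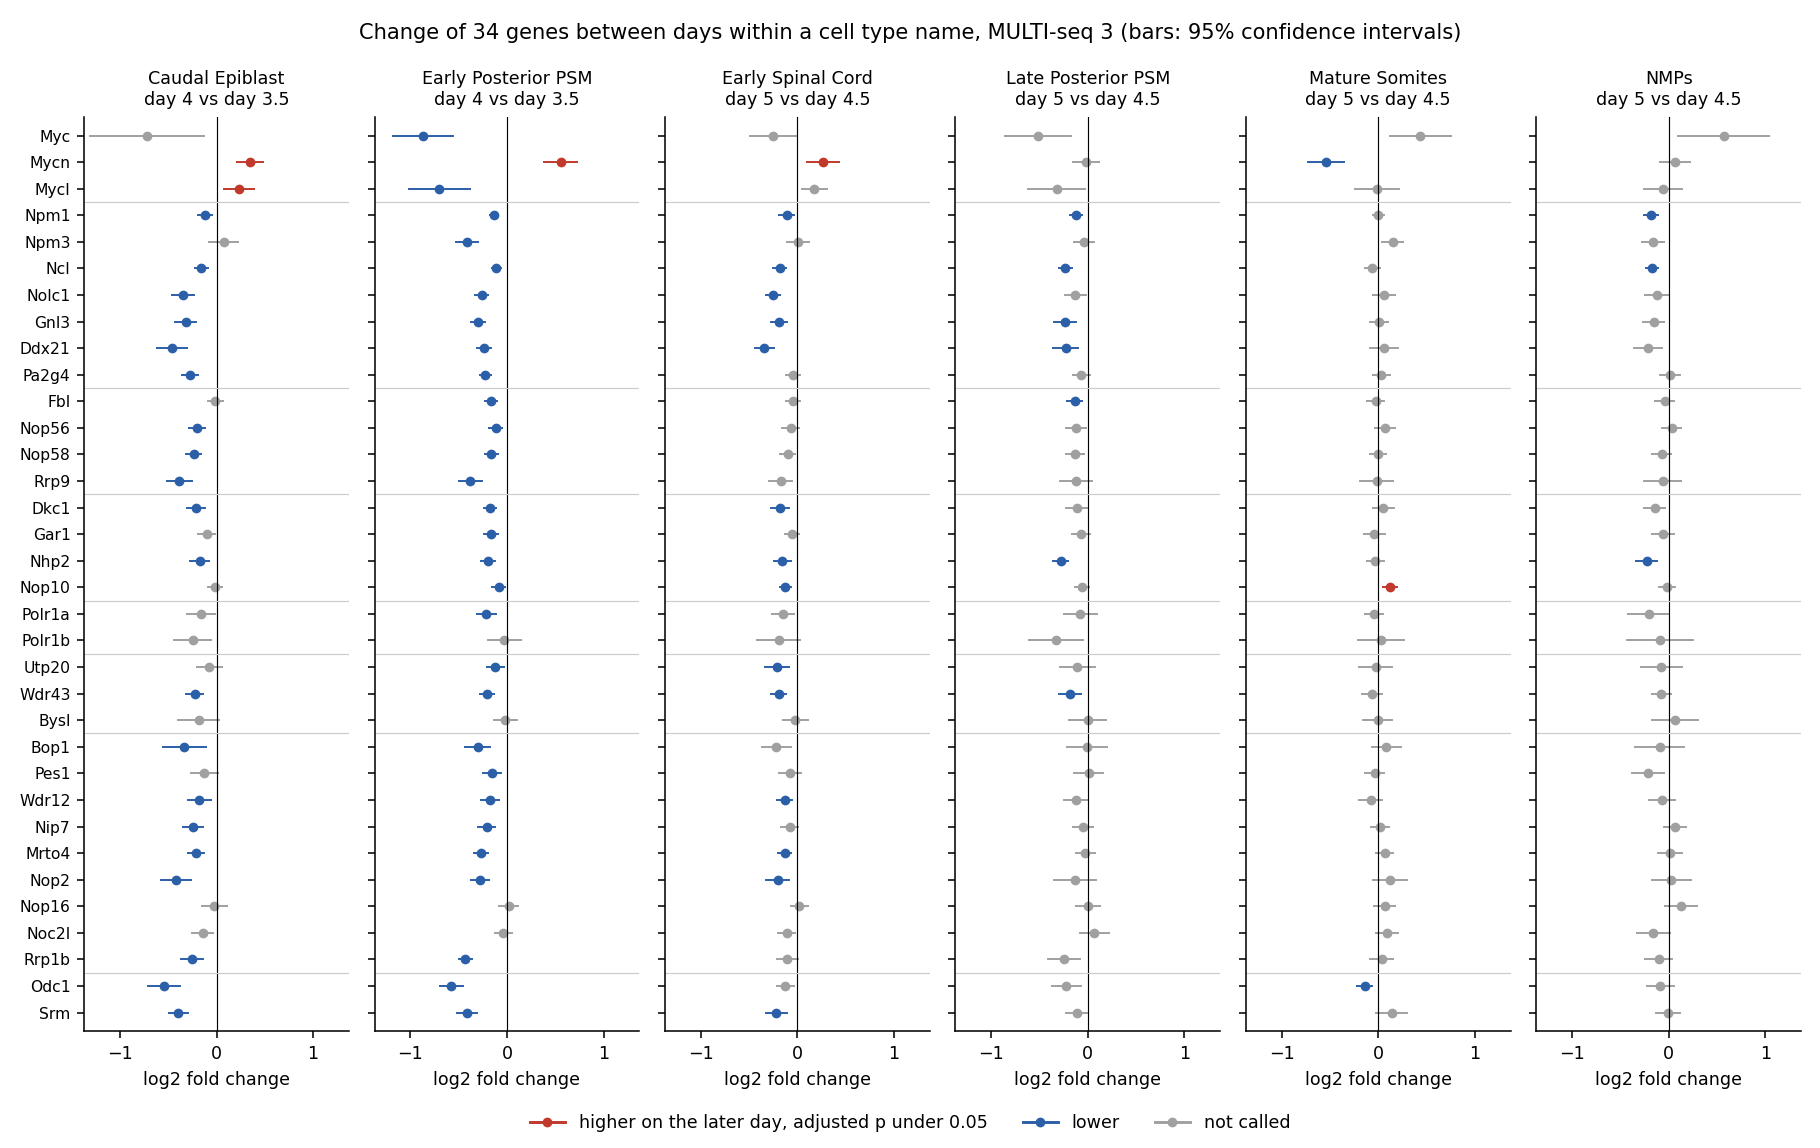
Log2 fold change (x axis) of each of the 34 genes (y axis, grouped by role) between days within cells of 1 name, with bars of 95% confidence intervals. Blue, red and grey mark lower, higher and not called on the later day; most points are blue in Early Posterior PSM (29 of 34) and nearly all are grey in Mature Somites (31 of 34).

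From day 4.5 to day 5, 4 names could be tested. In Early Spinal Cord (14 and 15 gastruloids) 14 members fell and Mycn rose, beside 12.3% of 9150 genes (5.99% lower, 6.33% higher). Ddx21 had 176, 204.5 and 227 CPM and then 127, 166 and 197 (log2 change −0.34 ± 0.05, adjusted p = 4.2e-06). Nhp2, Dkc1 and Nop10 fell by 0.12 to 0.18 on the log2 scale, and Utp20, Nop2 and Srm by 0.21 to 0.22. Mycn had 36.4, 45.2 and 64.3 CPM on day 4.5 and 42.9, 54.8 and 83.0 on day 5 (0.27 ± 0.08, adjusted p = 0.029), a call that was lost without lane A or without lane C. Myc and Mycl differed by −0.25 ± 0.12 and 0.18 ± 0.07, not called. The other members without a call, Npm3, Pa2g4, Fbl, Nop56, Nop58, Rrp9, Gar1, Polr1a, Polr1b, Bysl, Bop1, Pes1, Nip7, Nop16, Noc2l, Rrp1b and Odc1, had differences from −0.22 to 0.02. Without lane B the members that fell numbered 8.

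In Late Posterior PSM (9 and 15 gastruloids) 7 members fell, beside 6.15% of 8421 genes (3.02% lower and 3.14% higher, 254 and 264 genes, or 169 and 371 with library totals). Nhp2 led, from 356, 378 and 422 CPM to 279, 323 and 358 (log2 change −0.28 ± 0.04, adjusted p = 3.4e-06), and Ncl, nucleolin, fell by 0.23 ± 0.03. Npm1, Gnl3, Ddx21, Fbl and Wdr43 were the others. The number that fell was 4 with library totals, 4 to 5 without 1 of the lanes (4 without lane C) and 3 with at least 50 cells per gastruloid and name. In NMPs (8 and 14 gastruloids) 3 members fell, Nhp2 (−0.23 ± 0.05), Npm1 (−0.19 ± 0.04) and Ncl (−0.17 ± 0.03), beside 6.06% of 8460 genes (3.49% lower and 2.58% higher, 295 and 218 genes, or 163 and 342 with library totals). In Mature Somites (10 and 16 gastruloids) 14.6% of 10328 genes were called (7.66% lower, 6.94% higher), and of the 34 members 3 were, Mycn, Odc1 and Nop10. There Mycn fell, from 30.8, 69.7 and 91.0 CPM to 29.1, 49.9 and 62.0 (−0.54 ± 0.09, adjusted p = 7.9e-05). Odc1 fell by 0.14 ± 0.04 and Nop10 rose by 0.12 ± 0.04. The call of Nop10 was lost without any 1 of the 3 lanes (adjusted p = 0.057 to 0.083), and that of Odc1 without lane A (adjusted p = 0.16). Myc differed between the days by −0.51 ± 0.17 in Late Posterior PSM, 0.57 ± 0.24 in NMPs and 0.44 ± 0.16 in Mature Somites, and was called in none. Mycn differed by −0.02 ± 0.07 in Late Posterior PSM and 0.07 ± 0.08 in NMPs, and Mycl by −0.32 ± 0.15, −0.06 ± 0.10 and −0.02 ± 0.12 in Late Posterior PSM, NMPs and Mature Somites, with no call. The remaining members without a call ran from −0.33 (Polr1b) to 0.07 (Noc2l) in Late Posterior PSM, from −0.22 (Ddx21) to 0.13 (Nop16) in NMPs and from −0.08 (Wdr12) to 0.15 (Npm3) in Mature Somites. Whether the changes differ between names was not tested.

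Levels were also described across the 20 names of MULTI-seq 3 with at least 5 gastruloids of 20 or more cells, with no test because the names were made from the same expression values. A name's gastruloids come from all days on which it occurred, so name and day are mixed in these orders. Caudal and Early Neurectoderm came from days 3 to 4 and Early Nascent Mesoderm from days 3 and 3.5, whereas Notochord, Mature Somites and Head Mesoderm came from days 4 to 5. Over all days the sum of the 31 ribosome and polyamine genes was highest in the ectodermal names and in the earliest mesoderm. Caudal Neurectoderm had 16283 CPM (median of 13 gastruloids), Early Neurectoderm 15724, Early Nascent Mesoderm 15256 and Early Spinal Cord 14823. It was lowest in Notochord (8600 CPM, 9 gastruloids), Mature Endoderm (9345), Mature Somites (10143) and Head Mesoderm (10202). The highest median was 1.89 times the lowest. Caudal Neurectoderm ranged from 14170 to 18824 CPM and Notochord from 7385 to 9496, with no overlap, whereas neighbours in the order overlapped in range. Both names were picked as the ends of this order, and the share of all genes without overlap between them is not reported here. Npm1 made up 44.2% to 52.6% of the sum. The sum without Npm1 put the same 6 names first and the same 2 last.

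The sum was also read within single days, over names with at least 5 gastruloids on that day. On day 3 (4 names) it was highest in Early Neurectoderm, at 15806 CPM, and lowest in Early Posterior PSM, at 13403 CPM. On day 3.5 (5 names) it was highest in Caudal Neurectoderm (16296 CPM, 10 gastruloids) and lowest in Primitive Streak (11458 CPM, 13 gastruloids), with no overlap. Both were picked as the ends of that day's order, and the share of all genes without overlap between them is not reported here. On day 4 no neurectoderm or spinal cord name had 5 such gastruloids, and among the 13 names that did Late Nascent Mesoderm came first, at 13328 CPM, and Notochord last, at 8853 CPM. Early Spinal Cord came first on days 4.5 and 5, with 15072 and 14056.5 CPM. The last names on those days were Mature Somites (9793 CPM) and Mature Endoderm (8602 CPM).

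Over all days, and so with the same mixture of name and day, 19 of the 31 genes had their highest median in Caudal Neurectoderm and 13 their lowest in Notochord. The spread between names was widest for Odc1, with 432 CPM in Caudal Neurectoderm and 111 in Late Posterior PSM, a ratio of 3.91. Npm3 came next, from 389 CPM in Early Nascent Mesoderm to 104 in Somites. It was narrowest for Pes1 and Nop16, at ratios of 1.48 and 1.49. Gar1, Nop10 and Nip7 were highest in Early Spinal Cord, and Rrp1b in Caudal Epiblast at 120.0 CPM. Nop16 was highest in Late Nascent Mesoderm.

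**Figure D4:**
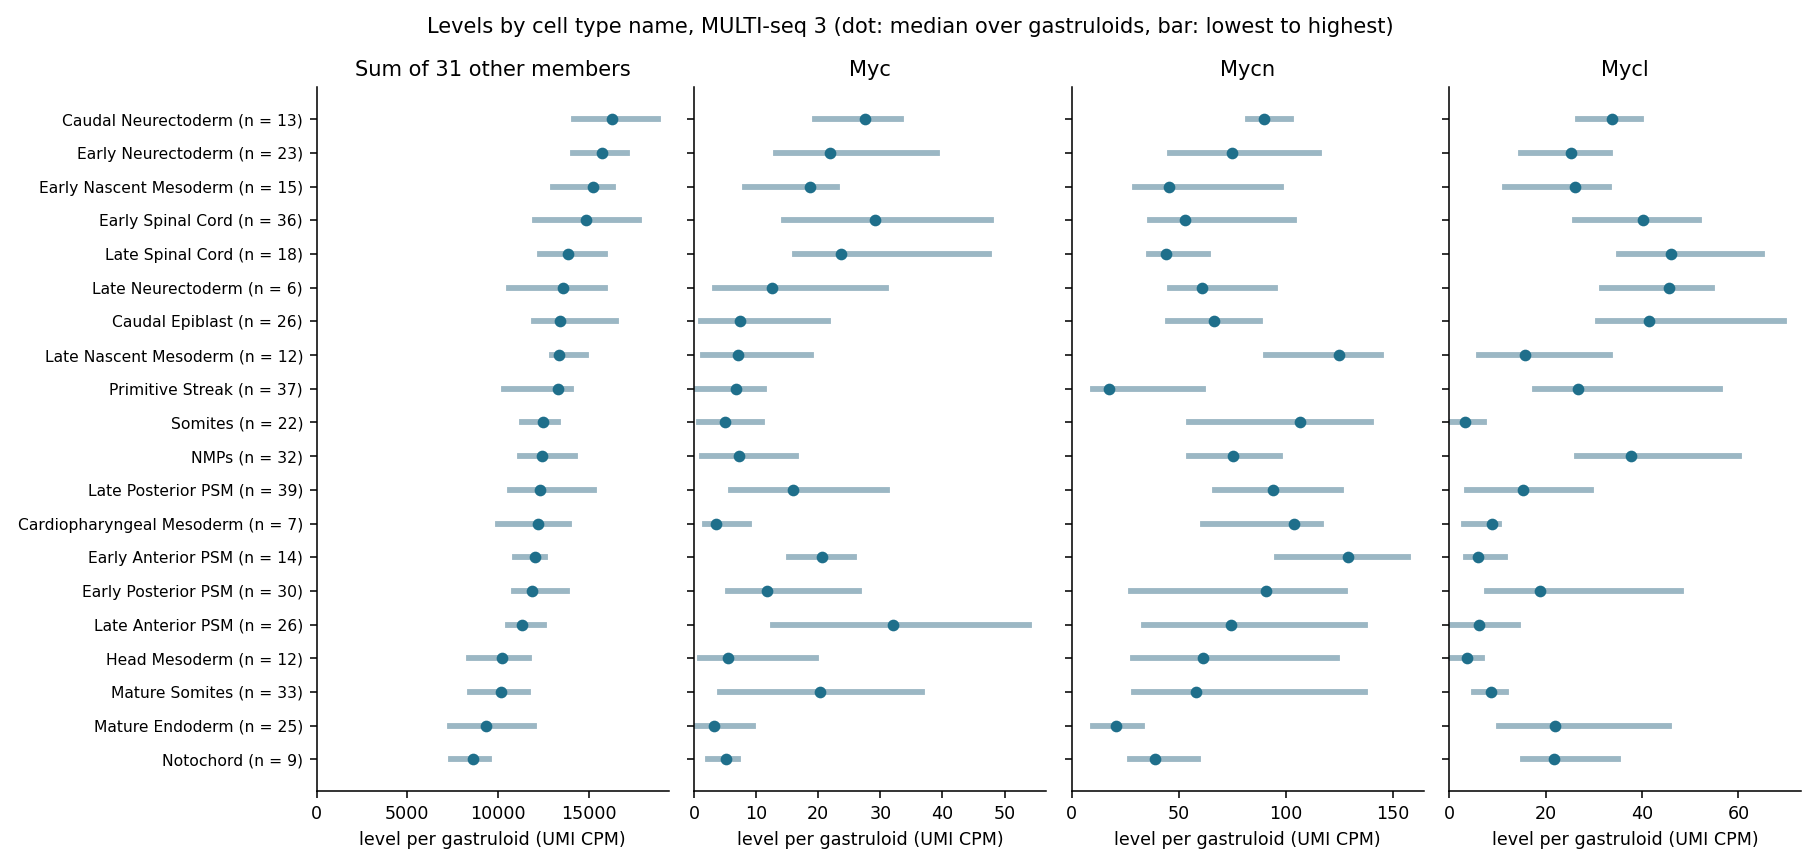
Level (UMI CPM, x axis) of the sum of the 31 other members and of Myc, Mycn and Mycl by cell type name (y axis, ordered by the sum) in MULTI-seq 3, all days of a name together; dots are medians over gastruloids and bars run from the lowest to the highest. The 3 Myc genes follow different orders: Mycn is highest in Early Anterior PSM (129 CPM), Myc in Late Anterior PSM (32.0 CPM) and Mycl in Late Spinal Cord (46.1 CPM).

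The 3 Myc genes had different orders over the names, taken over all days. Mycn was highest in mesoderm: Early Anterior PSM, which came from day 4 only, had a median of 129 CPM (96.1 to 157 over 14 gastruloids), Late Nascent Mesoderm 125, Somites 107 and Cardiopharyngeal Mesoderm 104. The lowest medians of Mycn were 17.2 CPM in Primitive Streak, which came from days 3 and 3.5 only, 20.9 in Mature Endoderm and 38.7 in Notochord. Myc was highest in Late Anterior PSM, at 32.0 CPM (12.7 to 54.0 over 26 gastruloids), then in Early Spinal Cord (29.1), Caudal Neurectoderm (27.5) and Late Spinal Cord (23.6), and lowest in Mature Endoderm (3.22) and Cardiopharyngeal Mesoderm (3.43). Mycl was highest in the neural and axial progenitor names, with 46.1 CPM in Late Spinal Cord, 45.7 in Late Neurectoderm, 41.5 in Caudal Epiblast, 40.3 in Early Spinal Cord and 37.7 in NMPs. It was lowest in Somites, at 3.32 CPM, and Head Mesoderm, at 3.62. Neighbouring names in each of the 3 orders overlapped in range. Mycl did not overlap between Late Spinal Cord (35.3 to 65.0 CPM) and Somites (0 to 7.14), which were picked as the ends of its order. The share of all genes without overlap between these names is not reported here.

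The Myc genes were also read within single days, where the names with at least 5 gastruloids differ from day to day and hold no neurectoderm or spinal cord name on day 4. On days 3 and 3.5 Mycn was highest in Early Neurectoderm, with medians of 70.1 and 102 CPM, and lowest in Primitive Streak, with 14.0 and 43.3 CPM. These 2 names did not overlap on either day (on day 3, 45.8 to 84.0 against 9.88 to 21.1 CPM). They were picked as the ends of the order, and the share of all genes without overlap between them is not reported here. Among the 13 names of day 4 the highest were Late Nascent Mesoderm with 130.1 CPM and Early Anterior PSM with 129, and Mature Endoderm was lowest with 21.5. Myc was highest in Late Anterior PSM on days 4, 4.5 and 5, with medians of 36.4, 31.4 and 29.8 CPM. On day 3 its highest name was Early Neurectoderm (23.7 CPM) and on day 3.5 Caudal Neurectoderm (27.8 CPM). Mycl was highest in Early Posterior PSM on day 3 (37.3 CPM), Caudal Epiblast on day 3.5 (38.6), NMPs on day 4 (45.7) and Late Spinal Cord on days 4.5 and 5 (46.5 and 44.4).

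Names that lead to somites were compared within gastruloids. Myc was higher in Late Anterior PSM than in Late Posterior PSM of the same gastruloid in 25 of 25 gastruloids of MULTI-seq 3 (medians 31.4 and 13.3 CPM) and 13 of 13 of MULTI-seq 1. Mycl was lower in Late Anterior PSM in the same 25 and 13 gastruloids (6.03 against 15.1 CPM in MULTI-seq 3). Mycn was lower there too, in 21 of 25 and 12 of 13 gastruloids.

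Between Late Posterior PSM and Mature Somites the order of Mycn and Myc moved with the day. Mycn was lower in Mature Somites in 3 of 6 gastruloids of MULTI-seq 3 on day 4, 8 of 9 on day 4.5 and 15 of 15 on day 5 (50.1 against 87.5 CPM on day 5). In MULTI-seq 1, all of day 5, it was lower in 20 of 20. In MULTI-seq 2 it was lower in 1 of 2 on day 4 and 4 of 7 on day 4.5. Myc was lower in Mature Somites of MULTI-seq 3 in 6 of 6 gastruloids on day 4 (5.47 against 17.0 CPM). It was lower there in 5 of 9 on day 4.5 and in 1 of 15 on day 5 (29.6 against 12.2 CPM). In MULTI-seq 1 Myc was lower in Mature Somites in 1 of 20. In MULTI-seq 2 it was lower in 2 of 2 on day 4 and 2 of 7 on day 4.5. The sum of the 31 was lower in Mature Somites in 30 of 30, 20 of 20 and 9 of 9 gastruloids of MULTI-seq 3, 1 and 2. Of the 31 genes 30 had the lower median in Mature Somites in each experiment. The exception was Odc1, which was higher in Mature Somites in all of these gastruloids, at 164.5 against 101 CPM in MULTI-seq 3.

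Early Spinal Cord held more Myc than NMPs of the same gastruloid in 23 of 23 gastruloids of MULTI-seq 3 (24.1 against 9.71 CPM) and 18 of 18 of MULTI-seq 1. Odc1 was higher there in the same gastruloids, 314 against 149 CPM in MULTI-seq 3, and so was the sum of the 31. Mycn had the opposite order in 21 of 23 gastruloids of MULTI-seq 3 and in 12 of 18 of MULTI-seq 1. Primitive Streak had less Myc and Mycn than Early Neurectoderm in 20 of 20 gastruloids (7.39 against 22.2 CPM for Myc and 16.3 against 72.2 CPM for Mycn), while Mycl was near equal (24.4 and 25.2 CPM).

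Late Spinal Cord and Mature Somites occurred together in 9 gastruloids of MULTI-seq 3 and 10 of MULTI-seq 1. All 31 ribosome and polyamine genes had the higher median in Late Spinal Cord in both experiments, 30 of them in at least 4 in 5 gastruloids of MULTI-seq 3 and 27 in those of MULTI-seq 1. The sum was 12684 against 9573 CPM in MULTI-seq 3. Mycl had the largest ratio, 45.1 against 7.72 CPM or 5.84 times, in 9 of 9 gastruloids, and 4.91 times in MULTI-seq 1. Myc and Mycn had no such order in MULTI-seq 3, where Myc was higher in Late Spinal Cord in 3 of 9 gastruloids and Mycn in 5 of 9. In MULTI-seq 1 each was higher there in 7 of 10.

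**Figure D5:**
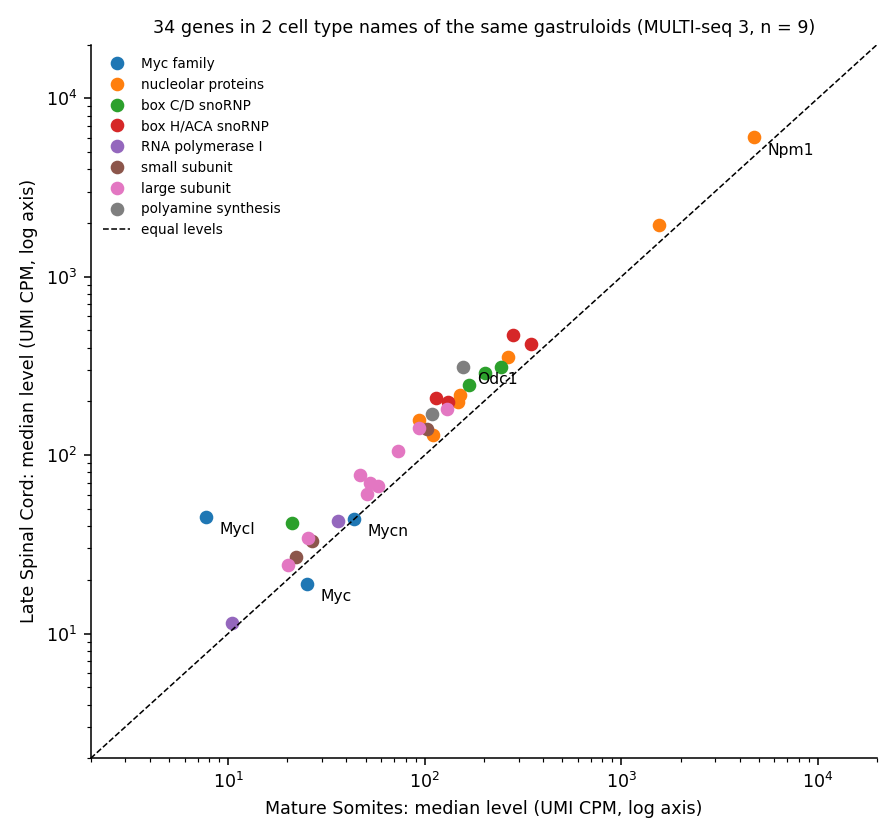
Median level of each of the 34 genes in Late Spinal Cord (y axis) against Mature Somites (x axis) of the same 9 gastruloids of MULTI-seq 3, in UMI CPM on log axes, coloured by role. Points above the dashed line of equal levels are higher in Late Spinal Cord; Mycl lies farthest above it (5.84 times) and Myc below it.

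The share of cells named Early or Late Spinal Cord was set beside the levels of whole gastruloids on day 5. The names come from the same cells and expression values as the levels, and a gene that is higher in cells of a name tends by construction to rise in the whole gastruloid with the share of that name, so the correlations are descriptions and carry no p. The comparison was chosen after the levels had been seen, and 8 relations were computed. In MULTI-seq 3 the share ran from 4.33% to 79.1% over 16 gastruloids and in MULTI-seq 1 from 2.89% to 84.1% over 24. For Mycl, Pearson's r was 0.97 and Spearman's rho 0.96 in MULTI-seq 3, and both were 0.96 in MULTI-seq 1. For Mycn r was −0.68 and −0.71 (rho −0.67 and −0.56), or −0.45 and −0.62 without the 2 gastruloids farthest from the median share. Myc had r of −0.39 and −0.17 (rho −0.42 and −0.10), or −0.18 and −0.01 without the 2 farthest. The sum of the 31 other members had r = 0.86 and rho = 0.89 in MULTI-seq 3 (r = 0.78 without the 2 farthest). In MULTI-seq 1 it had r = 0.10 and rho = 0.20 (r = 0.40 without the 2 farthest).

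On day 4 of MULTI-seq 3, 14 gastruloids held 0% to 2.35% of cells with a spinal cord name and the other 2 held 35.1% and 38.5%. Those 2 had the highest Myc, at 23.2 and 26.5 CPM against 6.86 to 14.9 in the other 14. They also had the highest Mycl, 40.4 and 41.0 CPM against 9.70 to 23.9, and the highest sum of the 31, 14067 and 14359 CPM against 10033 to 12524. Mycn was 77.5 and 78.6 CPM in these 2, within the 66.1 to 111 of the others.

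On day 4.5 the share left a wide gap in both experiments, and the values on its sides are given without a test. The names come from the same expression values. Genes that are higher or lower in cells of these names therefore tend by construction to differ between the sides, and likewise for day 4 above. The share of all genes without overlap between the sides is not reported here. In MULTI-seq 3, 9 gastruloids held 2.69% to 25.6% and 7 held 50.4% to 82.1%. Mycn ran from 56.1 to 76.5 CPM in the 9 and from 38.1 to 54.1 in the 7, and Mycl from 9.15 to 22.2 and from 35.3 to 43.9, neither with overlap. Myc (12.8 to 20.2 and 16.4 to 27.7 CPM) and the sum of the 31 (10053 to 12993 and 12677 to 13859 CPM) overlapped. In MULTI-seq 2, 7 gastruloids held 1.12% to 20.5% and 5 held 51.9% to 75.2%. There Myc (9.99 to 15.6 and 21.3 to 28.5 CPM), Mycl (8.68 to 19.4 and 34.2 to 41.4 CPM) and the sum (11481 to 13511 and 14618 to 15849 CPM) did not overlap, while Mycn did (55.9 to 62.1 and 39.5 to 61.3 CPM).

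MULTI-seq 1 holds day 5 only, and its levels are set beside those of MULTI-seq 3 without a test. There Myc had 11.0, 18.3 and 30.9 CPM over 24 gastruloids, Mycn 58.6, 92.9 and 113, and Mycl 14.5, 37.6 and 79.4. The 31 other members summed to 11311, 13420.2 and 14671 CPM. Of the 6 cell type names with levels there, Late Anterior PSM again had the highest Myc (34.1 CPM), Late Spinal Cord the highest Mycl (67.8) and Early Spinal Cord the highest sum (15558). Mycn was highest in Late Posterior PSM and NMPs (116 CPM each) and lowest in Late Spinal Cord (65.5). In the 10X lanes, 1 for each day and so without a replicate check, Mycn was 27.6 CPM on day 3 (3058 cells) and 75.7 on day 4 (2440 cells). Myc was 8.44 and 12.1 CPM, Mycl 37.4 and 23.7 CPM, and the sum of the 31 was 14969 and 13235 CPM.

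Names with few cells in MULTI-seq 3 are given from all their cells together, with exact 95% Poisson intervals that cover counting error only. Neurons (43 cells) had a sum of the 31 of 4977 CPM (4830 to 5127), below the median of each of the 20 names above. Endothelium (159 cells) had a sum of 9081 CPM, with Mycl at 0.976 CPM (0.358 to 2.13, from 6 UMIs) and Myc at 24.6 CPM. Primordial germ cells, named PGCs (252 cells), had a sum of 14599 CPM and Mycn at 69.7 CPM. Anterior Primitive Streak (321 cells) had a sum of 14180 CPM, Myc at 26.5 CPM and Mycn at 14.2 CPM.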

How the data were processed

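The deposited matrices hold UMI counts per gene and cell barcode from 18 lanes of 10x 3′ libraries, made by the authors with Cell Ranger 6.0.0 on mm10, with Seurat also named, per the submitters' processing notes. Cell type names, days and gastruloid calls come from the authors' deposited cell table. Of its 77683 cells, 9 had no barcode in their matrix and were left out, and 53730 carried the call of a single gastruloid. MULTI-seq 2 pool C and the 10X lanes carry no such calls and entered no test. No doublet caller was run, and cells without a call of 1 gastruloid were left out of all sums per gastruloid. Days 3 and 3.5 of MULTI-seq 2 were not analysed here.

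Counts were summed per gastruloid over the lanes of its pool, which are technical splits of the same cells, and gastruloids with under 30 cells were left out (1 in MULTI-seq 2), or under 20 for a gastruloid and name. Sums were tested with edgeR 4.0.16 in R 4.3.3 by its quasi-likelihood test, with TMM scaling, filterByExpr and Benjamini-Hochberg adjustment over all genes tested in a comparison. A gene was called at an adjusted p below 0.05, and standard errors are the log2 fold change divided by the square root of the F statistic. Levels in CPM use library totals without TMM factors. The difference between experiments was an interaction term. DESeq2 1.42.0, library totals, no filter, a raised minimum of cells and leaving out each lane were the alternatives. The fits were tested on simulated counts with 200 genes changed: of the genes changed by 1.5-fold, 74.6% were recovered for day 4 against day 3.5 (13170 genes), 83.3% for day 5 against day 4.5 (12215 genes) and 77.3% for day 4.5 against day 4 of MULTI-seq 2 (10938 genes). Of the simulated calls in these 3, 5.49%, 4.74% and 4.97% were false, and the share was 7.29% for day 4.5 against day 4 of MULTI-seq 3 (12772 genes) and 6.97% within Early Posterior PSM (9965 genes). The changed genes were few and went up or down at random. In the real comparison of day 4 against day 3.5, 60.4% of genes were called. The simulation therefore cannot show errors of scaling. Changes under 1.5-fold were not simulated, so it does not show how often the smaller changes of most members are found.

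The members and lists were chosen with earlier results of these data known. All 34 members are accounted for. The Myc genes are named in each comparison, then in each role the called member with the largest change and those that went against most of their role, then the members without a call with their range. At most 2 genes of each other list were named by size, and the further Myc network genes were named after their values were seen.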

Additional observations from a re-analysis of the deposited data

Results flagged for a closer look

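The change from day 4 to day 4.5 differed between MULTI-seq 3 and MULTI-seq 2 for 15 members by the interaction test in edgeR, with 2190 and 2070 of 12551 genes also called in either direction. The log2 difference (MULTI-seq 3 minus MULTI-seq 2) was −0.50 for Mycn and −0.39 for Utp20. It was 0.29 for Npm1, 0.28 for Ncl and 0.42 for Gnl3 among the nucleolar proteins, and 0.27 for Fbl and 0.47 for Rrp9 among the box C/D snoRNP proteins. The 4 box H/ACA snoRNP proteins had 0.33 (Dkc1), 0.45 (Gar1), 0.61 (Nhp2) and 0.56 (Nop10). Among the large subunit factors it was 0.49 for Bop1, 0.46 for Nip7 and 0.58 for Mrto4, and Srm had 0.55. In MULTI-seq 3 the 2 days were in separate pools, and day and pool cannot be told apart there. With a minimum of 100 cells per gastruloid the calls of Ncl, Gnl3, Rrp9 and Dkc1 were lost.

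In 5 groups of 5 to 9 gastruloids (1 name in 1 experiment) 4 measures each were examined for a gastruloid far from the rest. Of these 20 values, which are not independent, 3 had one, where chance gives about 1 in 20. That rate assumes values of a single kind, and the groups mix days, so no excess over chance can be read from the count. In Cardiopharyngeal Mesoderm of MULTI-seq 3 a gastruloid had 61.4 CPM of Mycn (gap 0.692 of the range of its group) and 3.1 CPM of Mycl (gap 0.576). It was the 1 gastruloid of day 5, beside 6 of day 4 with 99.5 to 116 CPM of Mycn and 7.22 to 10.3 CPM of Mycl. A gastruloid of MULTI-seq 2 had 59.6 CPM of Mycn in Early Spinal Cord (gap 0.669), on day 4.5, the day of 7 of the other 8 gastruloids of its group.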

How the results depend on the processing

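Of 3467 values of single members under the alternatives, 3256 kept their side of the threshold, 162 lost a call, 30 gained 1 and 19 were counted as reversed in sign. Values without a call could change sign and still be counted among the 3256, and those are not listed. All 19 values counted as reversed came with library totals in place of TMM factors. For day 3.5 against day 3 these were Ncl (0.083), Gnl3 (0.12), Ddx21 (0.12), Pa2g4 (0.072), Nop58 (0.15), Rrp9 (0.0041), Pes1 (0.028), Nip7 (0.032), Nop16 (0.14), Odc1 (0.055) and Srm (0.037). For day 4.5 against day 4 of MULTI-seq 3 they were Ncl (−0.023), Nolc1 (−0.015), Pa2g4 (−0.15), Nop56 (−0.035), Pes1 (−0.093), Wdr12 (−0.027), Nop16 (−0.0059) and Rrp1b (−0.16). Library totals gave 18 members higher and 8 lower for day 3.5 against day 3, 10 and 8 for day 4.5 against day 4 of MULTI-seq 3, 5 and 4 for the difference between experiments, and 4 lower in Late Posterior PSM. Without a filter on low counts, more genes were tested, and 5 members were lower on day 5 against day 4.5, 15 higher on day 4.5 against day 4 of MULTI-seq 3, 1 higher in Caudal Epiblast and 1 lower in Mature Somites. The shares of all genes called in the fits without a filter are not reported here. The raised minimum of cells, which leaves fewer gastruloids, gave 1 member higher and 0 lower for MULTI-seq 2, 0 higher and 0 lower in Caudal Epiblast (34 genes of all called, in place of 1661), 3 lower in Late Posterior PSM (236 genes of all, in place of 518) and 0 higher in Mature Somites. For MULTI-seq 2 and Mature Somites the share of all genes called in these fits is not reported here, so those counts have no background beside them. No value could be had for NMPs with the raised minimum or without lane A, where too few gastruloids were left. In 12 comparisons DESeq2 moved no count of members by over 1.5 times.

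Leaving out each lane in turn moved these counts. In MULTI-seq 2 the members called lower ran from 0 to 1 and all genes called from 340 to 535, in place of 814. In Caudal Epiblast 1 to 2 members were higher, and all genes called ran from 1001 to 1163. In Early Spinal Cord 0 to 1 were higher and 8 to 15 lower, and all genes called ran from 687 to 859, in place of 1127. In Late Posterior PSM 4 to 5 were lower, with 266 to 309 genes of all. In Mature Somites 0 to 1 were higher and 1 to 2 lower, in fits whose share of all genes called is not reported here. In NMPs 178 to 217 genes of all were called, in place of 513. The causes of these shifts were not tested. A sum of the 31 genes without Npm1, chosen after the data were seen, moved 7 of the 20 names by at most 2 ranks.

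No paired analysis was possible because the replicate labels number lanes that hold cells of every gastruloid of a pool, and gastruloids carry no number that links them across days.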
